A study of Mus musculus with 10 samples.

Results

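The genes described here are 10 that direct protein phosphatase 1 (PP1) to glycogen or act in the laforin-malin system of glycogen control, chosen by name out of the 21853 protein-coding genes whose TPM was listed for each library. They are the 7 glycogen-targeting PP1 subunits Ppp1r3a, Ppp1r3b, Ppp1r3c, Ppp1r3d, Ppp1r3e, Ppp1r3f and Ppp1r3g, the glycogen-binding protein gene Stbd1, Epm2a, which encodes laforin, and Nhlrc1, which encodes malin. TPM is an abundance of transcripts within a library that is corrected for transcript length, so that levels of different genes can be set beside each other on this scale.

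Bulk RNA-seq was made from J1 mouse embryonic stem cells (ESCs), in which the study asked what the loss of glycogen synthase (Gys1) and of AMPK does, singly and jointly. Each of 5 lines has 2 libraries. Naïve ESCs (WT), AKO (AMPK KO), GKO (GYS1 KO) and DKO (AMPK, GYS1 KO) were all grown on gelatin with serum, mLIF at 1000 U/ml, the MEK inhibitor PD0325901 at 1 μM and the GSK3 inhibitor CHIR99021 at 3 μM, so that every knockout line and its control carried the same inhibitors. Primed ESCs (PJ1, also WT) were grown on Matrigel in serum replacement with bFgf at 10 ng/ml and Activin at 20 ng/ml, without the inhibitors, and only the sample title separates them from the naïve ESCs. The study's methods describe Gys1 clones picked from single colonies after Cas9 editing, and Prkaa1-targeted J1 cells sorted for RFP. Which clone or pool gave each library is not stated, so that the effect of a knockout and that of a clone cannot be told apart, and nothing says that the libraries of a line came from separate cultures, so that p-values measure only the spread between these libraries.

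Glycogen grows when glycogen synthase is active, and PP1 activates the enzyme by removing inhibitory phosphates, some of which GSK3 had added. PP1 has no affinity for glycogen of its own, and the Ppp1r3 subunits hold its catalytic subunit at the glycogen particle together with its substrates. Laforin is a phosphatase that acts on glycogen itself, malin is a ubiquitin ligase that binds laforin and marks glycogen-targeting subunits and other proteins for degradation, and loss of either causes Lafora disease, in which poorly branched glycogen accumulates. Stbd1 binds glycogen through a starch-binding domain and ties it to membranes and to the autophagy protein Gabarapl1.

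The label checks were as follows. Prkaa1, which encodes the AMPK α1 subunit, measured 15.5 and 16.6 TPM in naïve ESCs, 7.24 and 6.94 in AKO, 2.30 and 2.04 in DKO and 12.2 and 12.0 in GKO. Gys1 mRNA stayed between 9.70 and 14.3 TPM in all 10 libraries, GKO and DKO included, so that its mRNA does not check those labels. The 8 naïve markers summed to 1251 to 1468 TPM in naïve, AKO, DKO and GKO and to 25.7 to 33.3 TPM in primed ESCs, while the 6 primed markers summed to 42.4 to 74.9 TPM and to 435 to 466 TPM. The libraries of primed ESCs differed more from each other than those of any other line, with a median absolute difference over tested genes of 0.13 on the log2(TPM + 1) scale against 0.06 to 0.07.

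All 10 genes were low. No library exceeded 6.34 TPM for any of them, which was Stbd1 in 1 library of primed ESCs, and averaged over all 10 libraries the level of Nhlrc1, 1.40 TPM, was higher than that of 51.1% of the listed genes. The genes were set apart by when they were low. Nhlrc1 was the most abundant of them in naïve ESCs, AKO and DKO, Ppp1r3f in GKO and Stbd1 in primed ESCs. Only 4 of the 10 reached 1 TPM in at least 2 libraries, the condition for the test, and the passes came from different lines. Nhlrc1 passed through naïve, AKO and DKO, Stbd1 and Ppp1r3b only through primed ESCs, and Ppp1r3f only through GKO. A gene that passes only through the line where it is high had to differ there, so counts among these 4 genes are a description. For those 3 genes in those lines, the p given is that of a fit of all 21853 genes with no filter.

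**Figure D1:**
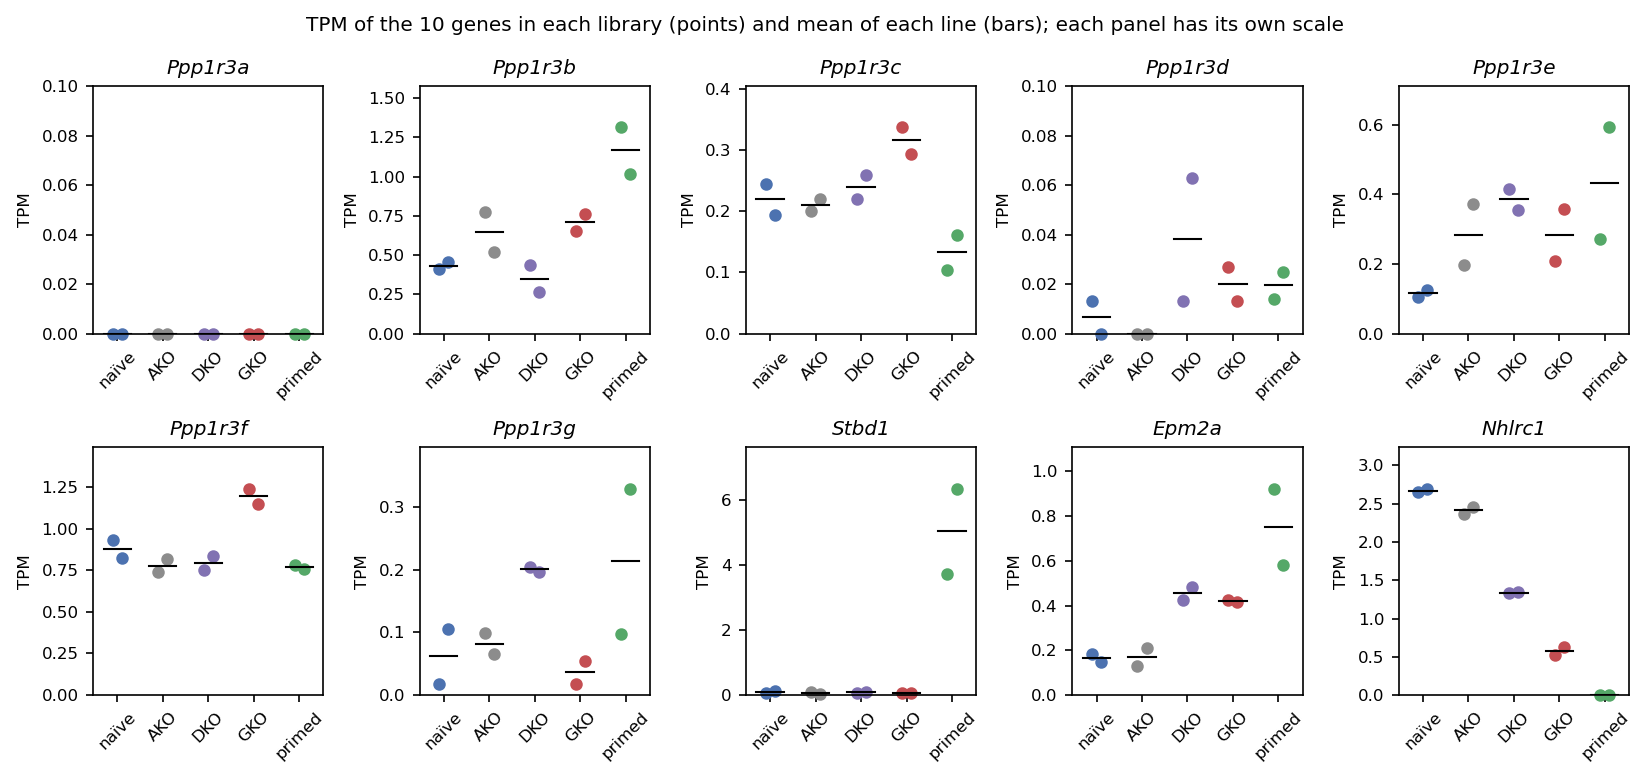
TPM of each of the 10 genes (one panel each, with its own vertical scale from 0) by line, with 1 point per library and a bar at the mean of the 2 libraries. Nhlrc1 descends from 2.67 TPM in naïve ESCs to 0 in primed ESCs, Stbd1 is above 0.2 TPM only in primed ESCs, and Ppp1r3a is listed at 0 in every library.

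Nhlrc1 and Stbd1 spanned the widest range over the lines, 1.88 and 2.49 on the log2(TPM + 1) scale, and in opposite directions between naïve and primed ESCs. Their promoters are therefore shown, as 300 bases around the RefSeq start in GRCm38.p6, most of them upstream of it, for Nhlrc1 on the minus strand at chr13:47014801-47015100 and for Stbd1 on the plus strand at chr5:92602801-92603100. Capitals mark matches to GGGNGTG, the motif of KLF factors, or to its reverse complement.
Nhlrc1: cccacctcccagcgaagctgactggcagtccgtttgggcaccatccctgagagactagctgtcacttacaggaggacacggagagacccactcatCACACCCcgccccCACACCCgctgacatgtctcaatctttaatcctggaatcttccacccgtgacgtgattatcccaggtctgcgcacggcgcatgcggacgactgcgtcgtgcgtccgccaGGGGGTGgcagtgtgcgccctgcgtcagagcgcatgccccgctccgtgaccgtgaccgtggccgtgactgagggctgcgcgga
Stbd1: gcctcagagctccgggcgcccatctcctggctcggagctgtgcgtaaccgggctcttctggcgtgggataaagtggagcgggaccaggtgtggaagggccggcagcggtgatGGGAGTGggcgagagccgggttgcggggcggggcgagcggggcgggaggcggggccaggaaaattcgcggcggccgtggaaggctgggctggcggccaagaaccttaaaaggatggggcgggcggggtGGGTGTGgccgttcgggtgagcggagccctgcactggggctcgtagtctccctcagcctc
The Nhlrc1 promoter held 3 such matches and the Stbd1 promoter 2, and 29.2% of 32851 promoters of the same length held at least 1. No match to AAGGTCA (a site of Esrrb), CACGTG (an E-box), TTCNNNGAA (STAT), CTTTGA (TCF) or TATAAA was found on either strand of these windows. Both were rich in CpG dinucleotides, with 26 in Nhlrc1 and 28 in Stbd1 against a median of 7 over all promoters. This was not particular to them, with 26 in Ppp1r3c, 29 in Ppp1r3f, 35 in Epm2a and 45 in Ppp1r3d. Ppp1r3g held 10 and Ppp1r3a 2. Promoters of 8 of the 10 genes were found in RefSeq. Those of Ppp1r3b and Ppp1r3e were not found there. Of the other 6, those of Ppp1r3f and Ppp1r3g also held 2 matches to GGGNGTG each, and those of Ppp1r3a, Ppp1r3c, Ppp1r3d and Epm2a held 0. A match describes the letters only.

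The level of malin mRNA was graded across the lines. Nhlrc1 lies on chromosome 13 from base 47166033 to 47168326 of GRCm39, on the minus strand, as a gene of 1 exon. It measured 2.648 and 2.696 TPM in naïve ESCs, 2.36 and 2.46 in AKO, 1.33 and 1.34 in DKO, 0.519 and 0.628 in GKO, and it was listed at 0 in both libraries of primed ESCs. The order was naïve, AKO, DKO, GKO and primed from high to low, and the libraries of no 2 neighbours in it overlapped. The smallest gap was between naïve ESCs and AKO. As means, the level in GKO was 0.574 ± 0.0771 TPM (SD, n = 2), 21.5% of the 2.67 ± 0.0339 TPM in naïve ESCs, and in DKO it was 1.34 ± 0.00707 TPM, 50.1% of naïve. In bulk RNA, fewer cells with a transcript and less of it per cell cannot be told apart.

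On the log2(TPM + 1) scale Nhlrc1 fell in GKO by 1.22 against naïve ESCs (SE 0.07, limma adjusted p = 5.13e-06) and fell in DKO by 0.65 (adjusted p = 0.000157). In AKO the difference from naïve was -0.11 (adjusted p = 0.696), which did not pass the threshold of 0.05. Nhlrc1 in GKO was also lower than in DKO, by a log2 difference of -0.57 (adjusted p = 0.000341), to 42.8% of the level there. DKO against AKO, which were both labelled AMPK KO and differ in the Gys1 label, gave -0.55 (adjusted p = 0.000388). The interaction, which is the GKO-naïve difference minus the DKO-AKO difference, was -0.68 (SE 0.10, adjusted p = 0.00200). DKO and AKO also differed in Prkaa1, by -1.35 (adjusted p = 3.39e-06), while Prkaa2, which encodes AMPK α2, was at 2.71 and 2.44 TPM in AKO and 3.29 and 3.10 TPM in DKO. DKO against AKO and the interaction carry these differences as well, and their part in the values was not tested. Each of these Nhlrc1 calls was kept when any 1 library was left out. The differences from naïve ESCs share the naïve libraries.

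In primed ESCs the Nhlrc1 difference from naïve was -1.88 with 1 TPM added before the logarithm and -4.79 with 0.1 TPM added, with adjusted p = 2.30e-08 for the first. Since both primed libraries were listed at 0, its size depends on the amount added, and no fold is given. An antisense long noncoding RNA, 2010001K21Rik, covers part of the Nhlrc1 exon. The labels describe a strand-specific kit, but whether the counting used strand is not stated, so that reads of the pair may not have been separated. The other tested genes of chromosome 13 had a median difference from naïve of 0.06 in GKO, 0.01 in DKO and 0.05 in primed ESCs. The nearest tested neighbours, picked after their values were seen, did not share the change of Nhlrc1 in size. Kdm1b differed from naïve by -0.11 in GKO (adjusted p = 0.389) and Kif13a by -0.14 (adjusted p = 0.184), while Tpmt varied widely between libraries and gave -0.57 with an SE of 0.36 (adjusted p = 0.217). Nup153, farther away, fell in GKO by 0.29 (adjusted p = 0.00305). In primed ESCs the difference from naïve was -0.78 for Nup153 (limma adjusted p = 1.59e-06) and -0.33 for Kdm1b (adjusted p = 0.0104). It was -0.27 for Kif13a (adjusted p = 0.0127) and 0.38 for Tpmt (adjusted p = 0.346). Over all tested genes 80.0% passed in that comparison.

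Laforin did not follow malin. Epm2a (chromosome 10, 11219132 to 11335388, plus strand) measured 0.182 and 0.149 TPM in naïve ESCs, 0.128 and 0.211 in AKO, 0.426 and 0.485 in DKO, 0.426 and 0.415 in GKO, with 0.922 and 0.580 in primed ESCs. Naïve ESCs and AKO overlapped, as did DKO and GKO, and the latter pair lay above the former and below primed ESCs without overlap. The mean was 2.54-fold the naïve mean in GKO, 2.75-fold in DKO and 4.54-fold in primed ESCs. Epm2a did not reach 1 TPM in any library and was not in the tested set. When all 21853 genes were tested with no filter, the difference from naïve was 0.58 in primed ESCs (adjusted p = 0.00274), 0.29 in GKO (adjusted p = 0.0747) and 0.32 in DKO (adjusted p = 0.0583). Only the first passed the threshold, in a setting in which 50.7% of all genes passed for primed against naïve ESCs. The ratio of malin to laforin TPM was 14.5 and 18.1 in naïve ESCs, 18.5 and 11.7 in AKO, 3.13 and 2.77 in DKO and 1.22 and 1.51 in GKO, and it was 0 in primed ESCs. This ratio separated the lines with an edited Gys1 from naïve ESCs and AKO with no overlap. It rests on Epm2a levels under 1 TPM, and an antisense noncoding RNA, Gm66672, overlaps an exon of Epm2a.

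Stbd1 was a gene of primed ESCs. It lies on chromosome 5 from 92750891 to 92754438 on the plus strand. It was at 3.72 and 6.34 TPM in primed ESCs and at 0.022 to 0.120 TPM in the other 8 libraries, whose lines all overlapped their neighbours in the order. The mean in primed ESCs, 5.03 ± 1.85 TPM (SD, n = 2), was 57.8-fold the naïve mean of 0.087 ± 0.0467 TPM. On the log2(TPM + 1) scale the difference was 2.44, and with no filter its SE was 0.19 and its adjusted p 0.000138, in a fit in which 50.7% of all genes passed. Against naïve ESCs Stbd1 gave -0.03 in GKO, 0.0058 in DKO and -0.05 in AKO, and none of these passed. Their SEs were 0.17 in the fit of all lines, which includes the primed libraries. On the compared lines alone the SE was 0.05 for GKO and 0.05 for DKO, again without a call. The naïve level was far below the 1 TPM added before the logarithm. A fall of Stbd1 with the loss of Gys1 could therefore hardly have been detected, and none is excluded.

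Other cell types were measured beside the primed result. Of 5 fibroblast or feeder markers, 3 reached 1 TPM in both primed libraries (Col1a1, Col1a2 and Thy1), the list summed to 8.64 to 14.8 TPM against 2.78 to 3.37 TPM in naïve ESCs, and Dcn was at 0 in both. The 5 primitive endoderm markers summed to 0.769 to 6.93 TPM in primed ESCs and to 0.747 to 1.01 TPM in naïve ESCs. The 4 mesendoderm markers summed to 2.84 to 20.2 TPM against 36.4 to 37.3 TPM. The part of such cells in the primed values of Stbd1, Ppp1r3b and Epm2a was not tested. Markers of muscle and liver, tissues rich in glycogen, summed to at most 0.473 TPM in any library. The other tested genes of chromosome 5 had a median difference of -0.21 in primed ESCs. The neighbour Scarb2, which encodes a lysosomal membrane protein and was picked after its values were seen, measured 4.61 and 4.72 TPM in naïve ESCs and 32.8 and 33.4 TPM in primed ESCs, a difference of 2.59 (adjusted p = 1.36e-09). Shroom3, on the other side of Stbd1, gave -0.17 (adjusted p = 0.132).

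**Figure D2:**
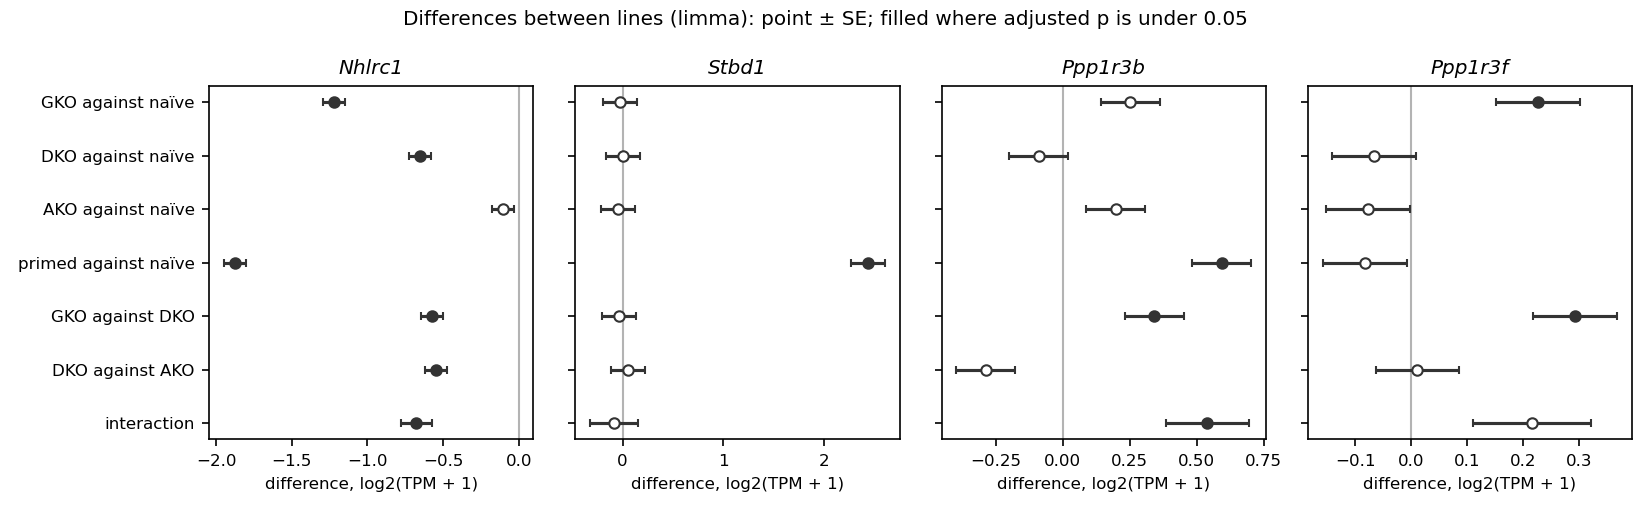
Differences on the log2(TPM + 1) scale (horizontal, points with SE bars) of the 4 tested genes in 7 comparisons, filled where the limma adjusted p is under 0.05. Each panel has its own horizontal scale. Nhlrc1 lies left of 0 in all 7 and is filled in 6, and Stbd1 is filled only for primed against naïve ESCs. Fills of Stbd1 and Ppp1r3b in primed ESCs and of Ppp1r3f in GKO are a description, since the filter was passed only through those lines.

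Among the PP1-targeting subunits, Ppp1r3b (the subunit of liver, chromosome 8, 35842874 to 35856680, plus strand) was highest in primed ESCs. It measured 0.409 and 0.457 TPM in naïve ESCs, 0.775 and 0.521 in AKO, 0.435 and 0.264 in DKO, 0.652 and 0.764 in GKO, with 1.31 and 1.02 in primed ESCs. The primed libraries lay above all others, GKO and AKO overlapped, and naïve ESCs and DKO overlapped. The primed mean was 2.69-fold the naïve mean, a difference of 0.59 (SE 0.11, adjusted p = 0.00511 with no filter, where 50.7% of all genes passed). Its tested neighbours were likewise picked after their values were seen. In primed against naïve ESCs Dusp4 gave 2.79 and Tnks 0.84, and both passed, as did 80.0% of all tested genes. Eri1 gave 0.04 (adjusted p = 0.581). Mfhas1 gave 2.02, but it did not exceed 0.186 TPM outside primed ESCs. It passed the filter only through them, so its value is a description. What the neighbours have to do with the Ppp1r3b value was not tested. In GKO the difference from naïve was 0.25 (adjusted p = 0.0837), in AKO 0.20 (adjusted p = 0.607) and in DKO -0.09 (adjusted p = 0.543). Fitted on naïve ESCs and GKO alone, the same 0.25 had an adjusted p of 0.0151.

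Ppp1r3b differed between GKO and DKO by 0.34 (adjusted p = 0.0332), with a mean in GKO 2.03-fold that in DKO. This call was lost in several settings. The adjusted p was 0.198 without DKO replicate 2, 0.0762 without GKO replicate 1, 0.156 without GKO replicate 2, 0.0704 under quantile normalization and 0.0832 with no filter. The interaction for Ppp1r3b was 0.54 (SE 0.16, adjusted p = 0.0337), with the opposite sign to that of Nhlrc1. It had an adjusted p of 0.0884 with no filter, passed in 2 of the 8 fits that leave out 1 library and had an adjusted p of at most 0.119 in the others. DKO against AKO gave -0.29 (adjusted p = 0.0605). An antisense noncoding RNA, Gm45469, overlaps an exon of Ppp1r3b.

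The line means of Ppp1r3f spanned 0.31 on the log2(TPM + 1) scale, the least of the 4. It lies on chromosome X from 7423535 to 7440541 on the minus strand, where Foxp3 and the noncoding Flicr overlap it on the other strand and the noncoding Gm36995 on its own. It measured 0.930 and 0.823 TPM in naïve ESCs, 0.739 and 0.817 in AKO, 0.749 and 0.834 in DKO, 1.24 and 1.15 in GKO, with 0.780 and 0.760 in primed ESCs. The GKO libraries were above the other 8, among which every line overlapped its neighbours. The mean in GKO was 1.36-fold that in naïve ESCs, a difference of 0.23 (SE 0.04, adjusted p = 0.0137 with no filter, where 27.1% of all genes passed). With the filter its adjusted p was 0.0320, and the call was lost whichever library of either line was left out, with adjusted p from 0.0651 to 0.172, and under quantile normalization, where the difference was 0.06 (adjusted p = 0.539). Against DKO the difference was 0.29 (adjusted p = 0.00715 with no filter, where 21.8% passed), and with the filter the call was lost without DKO replicate 1 (0.0762) or GKO replicate 1 (0.0776). In primed ESCs the difference from naïve was -0.08 (adjusted p = 0.324), but -0.32 (adjusted p = 0.00382) under quantile normalization. The other tested genes of the X chromosome had a median of -0.06 in GKO against naïve. Those on the same side of its middle as Ppp1r3f had a median of -0.40. Foxp3 was at most 0.27 TPM. In GKO, Thy1 was at 7.14 and 8.48 TPM against 3.00 and 2.44 TPM in naïve ESCs, and the 5 fibroblast or feeder markers summed to 7.96 to 9.22 TPM, with Postn and Dcn at 0. Their part in the GKO values was not tested.

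The other 5 subunits stayed under 0.6 TPM in every library and were not in the tested set. Ppp1r3c, which encodes protein targeting to glycogen (PTG), was at 0.337 and 0.294 TPM in GKO, above 0.245 and 0.194 in naïve ESCs, and at 0.104 and 0.161 in primed ESCs, the lowest of the lines. AKO, with 0.200 and 0.219 TPM, and DKO, with 0.219 and 0.259 TPM, overlapped naïve ESCs. With no filter its difference from naïve was -0.11 in primed ESCs (adjusted p = 0.0478) and 0.11 in GKO (adjusted p = 0.0729). The tested genes of its chromosome, 19, had a median of -0.45 in primed ESCs and -0.40 in GKO. Ppp1r3e was lowest in naïve ESCs, at 0.106 and 0.126 TPM, and ranged from 0.198 to 0.593 TPM elsewhere. No comparison of it passed even with no filter, and the tested genes of its chromosome, 14, had a median of 0.47 in GKO, 0.36 in DKO and 0.54 in primed ESCs. Ppp1r3g was at 0.204 and 0.197 TPM in DKO against 0.018 and 0.106 in naïve ESCs, 0.099 and 0.065 in AKO and 0.018 and 0.054 in GKO, and its primed libraries, at 0.098 and 0.329 TPM, lay on both sides of DKO. No comparison of Ppp1r3g passed with no filter either, and DKO against naïve gave 0.18 (adjusted p = 0.264). Ppp1r3d did not exceed 0.063 TPM and was listed at 0 in 3 libraries. Ppp1r3a, the subunit of skeletal muscle, was listed at 0 in all 10.

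Summed, the 7 subunits amounted to 1.72 and 1.71 TPM in naïve ESCs, 2.01 and 1.99 in AKO, 2.04 and 1.97 in DKO, 2.48 and 2.63 in GKO, with 2.58 and 2.89 in primed ESCs. The naïve libraries had the lowest sums, and those of GKO and primed ESCs, which overlapped each other, the highest. Ppp1r3b and Ppp1r3f made up 55.7% to 81.1% of the sum. The larger of the pair was Ppp1r3f in all libraries but AKO replicate 1 and those of primed ESCs, where Ppp1r3b gave 50.9% and 35.3%.

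**Figure D3:**
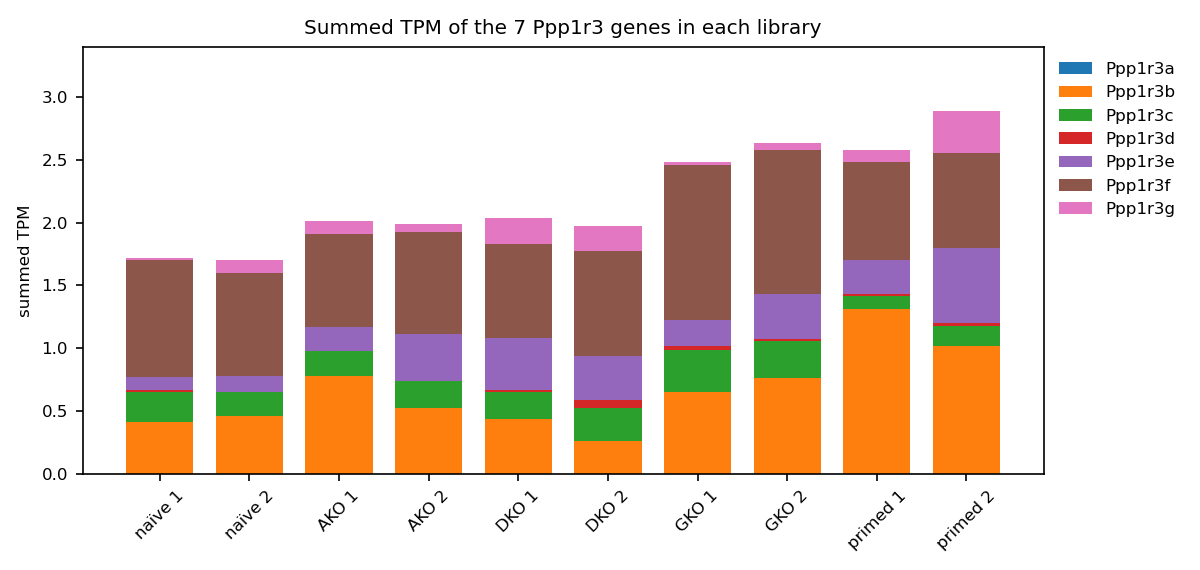
Stacked bars from 0 of the TPM of the 7 Ppp1r3 genes in each of the 10 libraries. The bars reach 1.71 to 1.72 TPM in naïve ESCs and 2.48 to 2.89 TPM in GKO and primed ESCs, and most of each bar is Ppp1r3b and Ppp1r3f.

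The catalytic subunits that these proteins recruit were far more abundant, and 2 of the 3 fell in GKO. Ppp1ca, Ppp1cb and Ppp1cc summed to 776 and 760 TPM in naïve ESCs, 791 and 752 in AKO, 583 and 597 in DKO, 572 and 594 in GKO, with 504 and 478 in primed ESCs. The targeting subunits came to 0.222% and 0.224% of that sum in naïve ESCs and to 0.434% and 0.444% in GKO. Ppp1ca fell in GKO by 0.66 (adjusted p = 4.73e-05), from 483 and 465 TPM to 296 and 303 TPM, and fell in DKO by 0.49 (adjusted p = 0.000297). Ppp1cc fell in GKO by 0.15 (adjusted p = 0.0444), and Ppp1cb rose by 0.24 (adjusted p = 0.00171). In AKO none of the 3 passed. Over all tested genes 51.7% passed in GKO and 27.1% were lower. In DKO 46.0% passed and 24.3% were lower, and in AKO 0.224% passed. Whole chromosomes also shifted, with medians over the tested genes of chromosome 19 of -0.40 in GKO, -0.27 in DKO and -0.45 in primed ESCs. The catalytic subunits were not compared with the other genes of their chromosomes. The part of such a shift in the values of Ppp1ca, Ppp1cb and Ppp1cc, and in their sum, was not tested.

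The calls among the 4 tested genes are read against those among all 12060. In GKO against naïve ESCs 2 passed, 1 higher and 1 lower, where 51.7% of all tested genes passed, 24.7% higher and 27.1% lower. In DKO it was 1, lower, where 46.0% passed and 24.3% were lower, and in AKO 0, also at an unadjusted p under 0.05, against 0.224%. In primed ESCs 3 passed, 2 higher and 1 lower, against 80.0%, with 37.4% higher and 42.5% lower. For GKO against DKO 3 passed against 43.5%, for DKO against AKO 1 against 46.3%, and for the interaction 2 against 25.8%. The median difference of the 4 genes from naïve was 0.10 in GKO and 0.25 in primed ESCs, beside medians of -0.01 and -0.05 over all tested genes. Stbd1 and Ppp1r3b passed the filter only through primed ESCs and Ppp1r3f only through GKO. The filter thus favoured higher values in those lines, and these medians are a description. The Nhlrc1 difference of -1.22 in GKO stood beside a median absolute difference of 0.24 over all genes. The Stbd1 difference of 2.44 in primed ESCs stood beside 0.55, and for the same reason it is a description.

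The enzymes of glycogen gave the setting. Of 19 listed, 16 were tested, and the gene lists, like the 10 genes, were drawn up with earlier results of these data known. In GKO 6 rose and 0 fell, where 51.7% of all tested genes passed and 24.7% were higher, and the median was 0.14 against -0.01 over all genes. They included Gyg, the primer of glycogen synthesis (0.64, adjusted p = 0.000389), Pgm1, which interconverts glucose phosphates (0.81, adjusted p = 0.000589), and Pygb, glycogen phosphorylase (0.39, adjusted p = 0.0170). In DKO 3 rose and 3 fell, beside 46.0% of all genes past the threshold, among them Gaa, the lysosomal glucosidase (0.94, adjusted p = 3.45e-05), and Gyg (-0.33, adjusted p = 0.0143). In AKO 0 passed. In primed ESCs 9 rose and 4 fell, beside 80.0% of all genes past the threshold, with a median of 0.42, and Pgm1 went from 2.20 and 2.23 TPM to 43.8 and 56.4 TPM. For the interaction 3 of the 16 were higher and 1 lower, beside 25.8% of all genes past the threshold. It was 0.90 for Gyg (adjusted p = 0.00136), opposite in sign to that of Nhlrc1. For Gaa it was -0.76 (adjusted p = 0.00153), with the same sign as that of Nhlrc1.

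Of 5 partners of laforin, malin and Stbd1, 4 were tested. Epm2aip1, which encodes a laforin-interacting protein, rose in GKO by 0.30 (adjusted p = 0.0206), in DKO by 0.62 (adjusted p = 0.000592) and in primed ESCs by 0.54 (adjusted p = 0.000395). Gabarapl1, the partner of Stbd1 in autophagy, measured 13.6 and 13.2 TPM in naïve ESCs. It fell in GKO to 8.01 and 7.55 TPM (-0.71, adjusted p = 0.000250) and in DKO to 6.88 and 6.74 TPM (-0.88, adjusted p = 0.000108), and it rose in primed ESCs to 25.4 and 31.1 TPM (1.01, adjusted p = 6.28e-06). Gabarapl2 moved the other way in primed ESCs, from 175 and 178 TPM to 36.5 and 35.1 TPM. Over the list 2 rose and 2 fell in GKO, 2 rose and 1 fell in DKO, and 3 rose and 1 fell in primed ESCs. The shares of all tested genes past the threshold were 51.7% in GKO, 46.0% in DKO and 80.0% in primed ESCs.

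PP1 has many other regulatory subunits, which served as a comparison. Of 31 listed, 26 were tested, and 6 rose and 6 fell in GKO, 4 rose and 8 fell in DKO, 0 passed in AKO, and 9 rose and 10 fell in primed ESCs. Over all tested genes 51.7% passed in GKO, 46.0% in DKO, 0.224% in AKO and 80.0% in primed ESCs. The largest difference among them in GKO was that of Ppp1r14d, an inhibitor subunit (0.92, adjusted p = 0.000648), which is smaller than that of Nhlrc1. In primed ESCs it was that of Ppp1r14c (2.74), larger than that of Stbd1. Ppp1r14c was at 7.25 and 6.80 TPM in primed ESCs, and no other library exceeded 0.307 TPM. Like Stbd1 it passed the filter only through primed ESCs, so its difference there is a description.

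**Figure D4:**
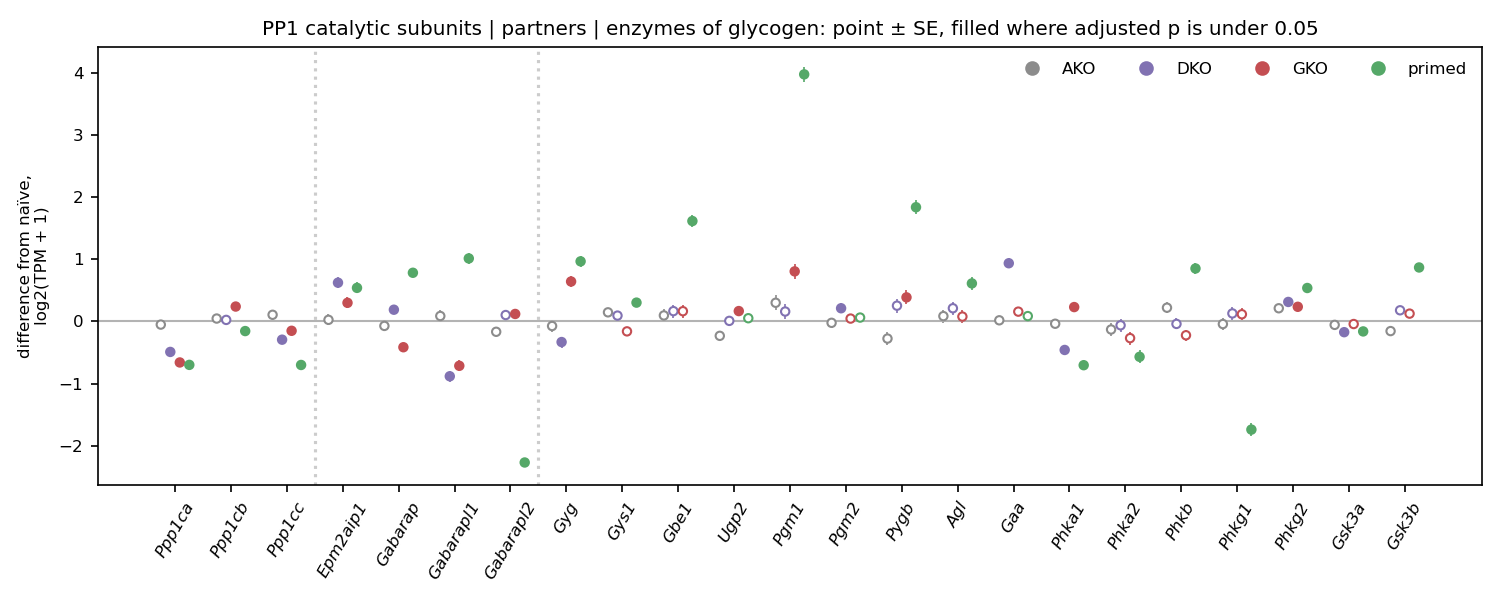
Difference from naïve ESCs on the log2(TPM + 1) scale (vertical, points with SE bars) for the 3 PP1 catalytic subunits, 4 partners and 16 enzymes of glycogen, in AKO, DKO, GKO and primed ESCs, filled where the limma adjusted p is under 0.05. No AKO point is filled, and the highest point is Pgm1 in primed ESCs.

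Genes with the pattern most like that of Nhlrc1 and Stbd1 were found by Pearson's r of log2(TPM + 1) over the 10 libraries, among 4549 genes whose line means spanned at least 1. The libraries fall into 5 lines, so r describes the order of the lines and carries no test. The nearest to Nhlrc1 were Adi1, an enzyme of methionine salvage (r = 0.996), and Nckap1l, a part of an actin-regulating complex (r = 0.996), and 155 genes had an r above 0.95. Nckap1l had means of 6.05 TPM in naïve ESCs, 5.67 in AKO, 2.71 in DKO, 1.23 in GKO and 0.181 in primed ESCs. The nearest to Stbd1 were Tal2 (r = 1.00) and Tmem154 (r = 0.999), and 1010 genes had an r above 0.95. A pattern of the Stbd1 kind, high in primed ESCs and low elsewhere, was found in more of the 4549 genes than the graded one of Nhlrc1.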

How the data were processed

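RNA from 5 lines of mouse ESCs was sequenced, with 2 libraries each. Groups and replicate numbers came from the sample titles. The authors trimmed the reads, aligned them with STAR, estimated expression with RSEM and deposited 1 TPM value for every protein-coding gene. The labels name Trim Galore 0.6.6, STAR 2.7.9a, RSEM 1.3.3 and an Illumina stranded kit, and the paper's methods give another kit and annotation release 104 of GRCm39, with a second STAR version in 1 of the places that name it. The listed TPM summed to 500162 to 578952 per library. TPM keeps no depth, so no interval or detection limit was derived. A prior step by RSEM shares reads among similar transcripts.

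The deposited TPM values were turned into log2(TPM + 1). Of 21853 genes, the 12060 that reached 1 TPM in 2 or more libraries entered a limma fit (version 3.58.1, R 4.3.3) of all 10 libraries, which had 1 mean per line and an intensity trend, two-sided, with Benjamini-Hochberg adjustment within each comparison and a threshold of 0.05. These differences understate changes of low genes. The text names all 10 genes, the knocked-out genes, members of the listed gene sets, the largest differences among other PP1 subunits, and the 2 genes with the most similar pattern for each of the 10 with a span of at least 1. The genes and lists were chosen with earlier results of these data known. Positions are from GRCm39 with a later annotation (GENCODE M39), and promoters from RefSeq on GRCm38.p6. The procedure was tested on simulated data. Alternatives were another pseudocount, a stricter filter (mean of 5 TPM) or none, scaling by quantiles or by median ratios, no trend, a minimum change, a replicate block, only the compared lines, and each library left out.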

Additional observations from a re-analysis of the deposited data

Results flagged for a closer look

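For 2 of the 4 tested genes the GKO minus naïve difference and the DKO minus AKO difference were unequal, by the interaction term of the limma fit. DKO and AKO also differed in Prkaa1, by -1.35, and clone and knockout cannot be told apart. For Nhlrc1 (malin) the interaction was -0.68 (adjusted p = 0.00200). GKO minus naïve was -1.22 and DKO minus AKO was -0.55, and the range over the 8 fits that leave out 1 library was -0.73 to -0.63. For Ppp1r3b it was 0.54 (adjusted p = 0.0337), from 0.25 for GKO minus naïve and -0.29 for DKO minus AKO, neither of which passed the threshold alone, and the range was 0.43 to 0.65 with adjusted p from 0.0318 to 0.119 and a call in 2 of the 8 fits. Ppp1r3b was under 1 TPM in all 8 libraries of this comparison. In a test of all genes, 25.8% had an interaction past the threshold. The cause of either was not tested.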

How the results depend on the processing

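Over 356 alternative values for the changes of the 4 tested genes, 314 kept their direction and their side of the threshold, 28 lost and 6 gained a call, and 8 changed sign, in each of which neither value had passed. Those were Stbd1 in GKO against naïve (0.0142 without naïve replicate 2, from -0.0734 with other libraries left out), Stbd1 in DKO against naïve (-0.0245 under quantile normalization, -0.038 without naïve replicate 1, -0.014 without DKO replicate 2, up to 0.0496), Ppp1r3b in DKO against naïve (0.0022 without DKO replicate 2, from -0.1808) and Ppp1r3f in DKO against AKO (-0.118 under quantile normalization, -0.0208 without AKO replicate 1, -0.0234 without DKO replicate 2, up to 0.0451). The count of the 10 genes called in GKO against naïve, 2, was 1 under quantile normalization, 1 with a minimum change of 1, 1 without any 1 library and 3 on the compared lines alone. In primed against naïve ESCs the count, 3, was 4 under quantile normalization, where Ppp1r3f gained a call (-0.318), and 2 with the minimum change. With the minimum change of 1 it was 0 in DKO against naïve, GKO against DKO, DKO against AKO and the interaction. Without the filter it was 5 in primed against naïve ESCs and 1 for the interaction. In DKO against AKO it was 2 with a pseudocount of 0.1, under quantile normalization and without the trend, and 1 to 2 with 1 library left out. Leaving out 1 library gave 1 to 2 in GKO against DKO (1 without GKO replicate 1) and 1 to 2 for the interaction. The filter at a mean of 5 TPM left 0 of the 10 genes. Over all genes, the minimum change of 1 left 433 calls in GKO, 357 in DKO and 3355 in primed against naïve, 323 in GKO against DKO, 375 in DKO against AKO and 349 for the interaction, which had 1944 to 2400 calls with 1 library left out against 3116. For AKO against naïve, 27 became 17 with the 5 TPM filter, 1 with the minimum change, 54 without the filter, 0 on the compared lines alone, 13 with the pseudocount of 0.1 and 1 to 3 with 1 library left out. The replicate numbers did not pair the samples, with correlations of -0.13 to 0.08 between same-numbered libraries. The replicate block left every count of the 10 genes as it was and gave 8 calls over all genes in AKO against naïve. With the numbers crossed, an alternative added after seeing the data, DKO against naïve had 5477 calls, against 5382 with the block and 5544 without. Median-ratio scaling changed no call of the 4 genes. TPM keeps no depth, so how far a level under 1 TPM can be resolved is unknown.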
